A study of Mus musculus with 5 samples.

Results

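Fibroblast-like mesenchymal progenitors of mouse hindlimb muscle were compared between day 2 and day 1 after injury with notexin, a snake venom phospholipase that destroys muscle fibres. Progenitors were the cells with at least 500 genes, at most 10% of unique molecular identifiers (UMIs) from mitochondrial genes, fewer than 5 UMIs in all of the tendon genes Tnmd, Fmod, Kera and Chad, and fewer than 5 in all of the mural genes Rgs5, Kcnj8, Abcc9 and Higd1b. The rule kept 2407 cells at day 2 and 4536 at day 1, that is 6943 of the 17213 barcodes of the whole series, which also holds a quiescent library and libraries of days 4 and 14. All groups were C57BL/6J mice of the genotype Hic1CreERT2/CreERT2; Rosa26LSLtdTomato/+, given 2.5 mg of tamoxifen in 100 uL of oil on each of 5 days at 8 weeks of age and then left for 10 days. Cells were sorted from whole hindlimb muscle, and tdTomato marks cells in which the Hic1 locus had driven Cre, and their descendants. Both Hic1 alleles carry CreERT2 in every group, and the number of animals pooled is not given in the labels. Each time point is 1 library, so there is no replicate check and no test, every difference is between these 2 libraries, and library and time cannot be told apart.

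Mesenchymal progenitors, also called fibro-adipogenic progenitors, are quiescent in resting muscle. After injury they secrete chemokines that bring in leukocytes, divide, lay down a transient matrix and give trophic support to muscle stem cells. Entry into the cell cycle is known to begin with growth, seen as production of ribosomes, followed by DNA synthesis in S phase and then by G2 and mitosis. Genes of the last step share promoter elements.

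Progenitors of the day 2 library held 31644425 UMIs with a median of 11165 per cell, against 42679103 UMIs and a median of 8787.5 in the day 1 library. All 10 progenitor markers were above 20 CPM (UMI counts summed over the progenitors of a library and scaled to their total) in both. Pdgfra, the receptor that defines these cells, was at 216 CPM at day 2 and 235 CPM at day 1. Summed markers of macrophages were at 6.19 CPM at day 2 and 3.94 CPM at day 1, and those of neutrophils at 2.88 CPM at day 2 and 2.30 CPM at day 1. Several other sums differed more between the libraries. Schwann cell markers were at 412 CPM at day 2 and 177 CPM at day 1, of which Pmp22 made up 391 and 172 CPM, mural markers at 87.2 CPM at day 2 and 39.0 CPM at day 1, and endothelial markers at 30.7 CPM at day 2 and 15.3 CPM at day 1. Tenocyte markers were at 78.7 CPM at day 2 and 167 CPM at day 1. The part of these cells in the results was not tested. Of the barcodes, 14 were shared by both libraries. Doublets were not removed, since Scrublet called 2 cells at day 2 and 0 at day 1, too few to be a working call. The highest Scrublet scores were taken as those of 52 cells of day 2 and 186 of day 1, tendon and mural marker cells included. Leaving out the 48 and 170 progenitors among them gave 526 genes higher and 438 lower, beside the 525 and 434 described next. Values in parentheses are 95% intervals that cover counting error only.

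Of 5423 genes with at least 20 CPM in either library, 525 (9.68%) were at least 2-fold higher at day 2 and 434 (8%) at least 2-fold lower, around a median log2 ratio of 0.07. For log2 ratios, 1 CPM was added to both libraries. The balance depended on the scaling: higher genes were 54.7% of those past 2-fold with totals, and 35.3% with TMM factors, which gave 358 higher and 656 lower and shifted every log2 ratio of CPM, before the 1 CPM was added, by -0.23. A further feature of the libraries touches these lists. Of the lower genes, 77 were also more than 2-fold lower in both the day 2 and the day 4 library than in each of the other 3 libraries (with 5 CPM added), and 54 of the higher genes were higher in the same way. These are called genes shared with day 4 below. Over all genes, 82 were lower and 62 higher by this rule. Of these, 42 and 29 also met it in both the tendon marker cells and the mural marker cells left out above. Whether these genes belong to the time or to how these libraries were made was not tested.

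**Figure D1:**
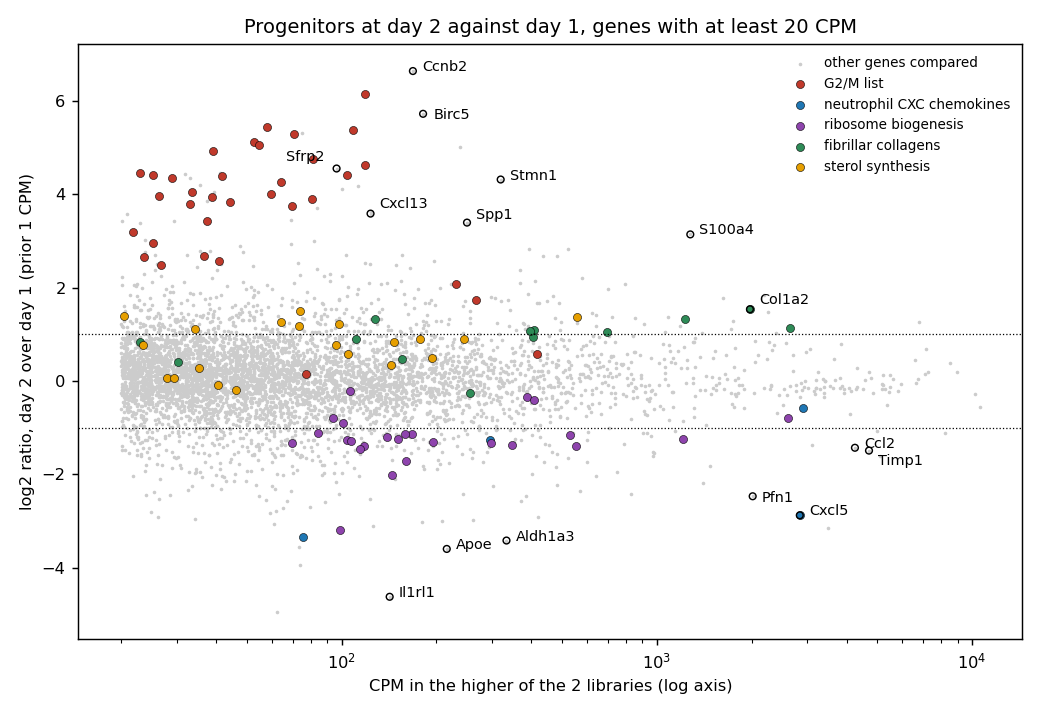
Log2 ratio of day 2 over day 1 against the CPM of the higher library (log axis), 1 point per gene with at least 20 CPM, with 5 gene lists coloured and 15 genes named. G2/M genes lie far above the dotted 2-fold line, with a median of 3.98, while ribosome biogenesis genes and neutrophil chemokines lie mostly below the lower one.

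The genes of G2 and mitosis gave the highest ratios. All 6 genes that define mitotic cells here were at least 2-fold higher at day 2, and so were 32 of the 34 other G2/M genes compared, with medians of 4.88 and 3.98 on the log2 scale. Many of these, such as Cdca3, Cenpa and Hmmr, reached 20 CPM only at day 2, so these counts are partly set by the level minimum. In cells without mitotic UMIs, where the 6 genes are at 0 by the rule, only 4 of the 40 other listed G2/M genes reached 20 CPM. Of these 4, 0 were higher and 1 was lower. Ccnb2, a B-type cyclin, was at 168 CPM at day 2 and 0.703 CPM at day 1, 239.5-fold higher (168 to 355). Cdca3, which helps to start mitotic entry, was at 119 CPM at day 2 and 0.703 CPM at day 1, 169-fold higher (118 to 251). Birc5, the survivin subunit of the chromosomal passenger complex, was at 181 CPM at day 2 and 2.46 CPM at day 1. The centromeric histone gene Cenpa was at 109 CPM at day 2 and 1.66 CPM at day 1, and Cdk1, the kinase of mitotic entry, was at 100.6 CPM at day 2 and 4.87 CPM at day 1. Hmmr, a spindle protein, was 165-fold higher (99.8 to 295). The 2 members not past 2-fold were Pttg1, with a log2 ratio of 0.14, and the tubulin gene Tubb4b, at 417 CPM at day 2 and 279 CPM at day 1. Of all 40 listed G2/M genes, including those under 20 CPM, 26 met the rule for genes shared with day 4, and so did all 6 mitotic genes.

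The promoters of 4 of these genes are printed because they carry the pair of elements known from cell cycle genes, TTTGAA (the cell cycle homology region) and CCAAT (bound by NF-Y). Each is RefSeq sequence on GRCm38.p6, 250 bases before to 50 after the gene's start, written 5′ to 3′ on the gene's strand, with every TTTGAA and CCAAT in capitals on either strand, so that CCAAT on the other strand reads ATTGG. Ccnb2 lies at chr9:70421505-70421804 on the minus strand, Cdk1 at chr10:69352863-69353162 on the minus strand, Cdca3 at chr6:124829926-124830225 on the plus strand and Cdc20 at chr4:118437294-118437593 on the minus strand.
Ccnb2: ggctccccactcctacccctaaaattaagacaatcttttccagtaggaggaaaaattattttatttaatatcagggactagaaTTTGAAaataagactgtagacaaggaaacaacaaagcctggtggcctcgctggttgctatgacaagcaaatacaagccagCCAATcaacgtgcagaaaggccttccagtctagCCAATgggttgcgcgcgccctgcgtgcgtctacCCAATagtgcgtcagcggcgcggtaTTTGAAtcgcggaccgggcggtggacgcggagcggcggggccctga
Cdk1: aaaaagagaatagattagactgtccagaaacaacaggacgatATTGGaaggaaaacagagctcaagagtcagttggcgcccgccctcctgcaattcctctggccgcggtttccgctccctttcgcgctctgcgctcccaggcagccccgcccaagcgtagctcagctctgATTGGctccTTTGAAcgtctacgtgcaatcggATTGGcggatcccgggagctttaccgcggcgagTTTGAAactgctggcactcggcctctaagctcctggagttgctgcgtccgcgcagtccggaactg
Cdca3: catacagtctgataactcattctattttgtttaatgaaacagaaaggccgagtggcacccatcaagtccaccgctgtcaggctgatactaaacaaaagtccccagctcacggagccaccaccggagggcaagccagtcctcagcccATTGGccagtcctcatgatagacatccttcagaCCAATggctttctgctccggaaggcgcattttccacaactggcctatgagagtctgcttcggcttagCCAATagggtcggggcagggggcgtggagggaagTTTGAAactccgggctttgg
Cdc20: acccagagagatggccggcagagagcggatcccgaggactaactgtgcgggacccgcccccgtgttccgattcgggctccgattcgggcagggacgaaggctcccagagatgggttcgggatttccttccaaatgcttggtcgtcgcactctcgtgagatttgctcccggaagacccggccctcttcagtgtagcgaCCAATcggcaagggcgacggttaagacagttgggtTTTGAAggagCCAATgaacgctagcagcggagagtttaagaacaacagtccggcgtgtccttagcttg

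Both motifs together occurred in the windows of 21 of 34 G2/M genes with a window (61.8%), against 5.68% of 4190 genes compared and 7.97% of 27025 genes in the table. In the Ccnb2 window a TTTGAA began 4 bases after the start, with CCAAT beginning 87, 54 and 21 bases before it. The S phase list held the pair in 2 of 25 windows and instead held TTCCCGC, a site form of the E2F factors, in 11 of 25 (44%), against 9.74% of genes compared. GGGANTT, a form of the NF-kB site that can share bases with TTCCCGC on the other strand, was in the windows of 3 of 3 neutrophil CXC chemokine genes, 2 of 10 CC chemokine genes, 12 of 25 S phase genes (48%) and 11 of 34 G2/M genes (32.4%), against 20.3% of genes compared. CCAAT was in 13 of 13 windows of sterol synthesis genes, against 43.4%. TGANTCA, the AP-1 form, was in none of the 34 G2/M windows and in 6.01% of genes compared. Matches describe letters in a window and do not show binding.

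The share of cells with mitotic transcripts differed in the same direction. After thinning each cell to 2000 UMIs, 31.9% of progenitors (30.1 to 33.9) had at least 1 UMI of Birc5, Cdk1, Ccnb1, Ccnb2, Top2a or Mki67 at day 2, against 1.63% (1.28 to 2.04) at day 1. Without thinning the shares were 52.2% at day 2 and 6.02% at day 1. Before injury the thinned share was 0.540%, and after day 2 it was 9.27% on day 4 and 0.684% on day 14, so that day 2 was the highest of the 5 libraries. Mural marker cells, which were left out of the progenitors, had such a UMI in 18.6% of 43 cells at day 2 and 1.03% of 97 at day 1, with median depths of 5816 and 3028 UMIs before thinning. Free RNA and dividing mural cells were not told apart.

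S phase genes behaved unlike those of mitosis. Of 22 compared, 6 were at least 2-fold higher at day 2 and 1 was lower, with a median of 0.26, or 0.04 with TMM factors. Those higher included Rrm2, a ribonucleotide reductase subunit, at 124 CPM at day 2 and 9.09 CPM at day 1, and Tk1, thymidine kinase, at 113 CPM at day 2 and 5.34 CPM at day 1. The helicase subunits loaded at replication origins were level or lower. Mcm5 was at 65.8 CPM at day 2 and 60.5 CPM at day 1, and Mcm6 at 43.1 CPM at day 2 and 84.7 CPM at day 1. Ung, which removes uracil from DNA, was 7.11-fold lower (5.87 to 8.68). By cell, 33.7% of day 2 progenitors (31.8 to 35.6) had at least 2 S phase UMIs after thinning, against 38.1% (36.7 to 39.6) of day 1 progenitors, while 8.97% had them without 2 G2/M UMIs at day 2, against 25.9% at day 1. At least 2 UMIs of the G2/M list were in 44.4% of cells at day 2 and 27.1% at day 1, but the list holds broadly expressed genes, and without Tubb4b, Hmgb2, Pttg1 and Cks2 (chosen after the values were seen) the shares were 27.5% at day 2 and 1.06% at day 1.

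Ribosome biogenesis was lower as a group. Of 25 genes compared, 19 were at least 2-fold lower at day 2 and none was higher, with a median of -1.25. Gar1, a protein of the particles that modify ribosomal RNA, was at 9.86 CPM at day 2 and 98.9 CPM at day 1, 10.03-fold lower (8.94 to 11.3). The pre-ribosomal factor Rrp9 was 4.10-fold lower (3.85 to 4.38), the nucleolar helicase Ddx21 3.32-fold lower (3.14 to 3.51), and Ncl, nucleolin, was at 510 CPM at day 2 and 1214 CPM at day 1. The 6 not past 2-fold included Npm1, nucleophosmin, with a log2 ratio of -0.79. Of 82 ribosomal protein genes compared, 0 were higher and 2 lower, with a median of -0.10.

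Among inflammatory genes, the chemokines that attract neutrophils were the most lowered list, while the other lists went both ways or stayed mostly within 2-fold. Of the 4 CXC chemokines that attract neutrophils, 3 were at least 2-fold lower, with a median of -2.07. Cxcl5 was at 385.5 CPM at day 2 and 2842 CPM at day 1, 7.37-fold lower (7.24 to 7.51). Its level was 0.137 CPM before injury and 16.1 CPM on day 4. Cxcl3 was at 6.54 CPM at day 2 and 75.2 CPM at day 1, and Cxcl1 stayed within 2-fold, at 1936 CPM at day 2 and 2909 CPM at day 1. The monocyte chemokine Ccl2 was at 1575 CPM at day 2 and 4251 CPM at day 1. Il1rl1, the receptor of interleukin 33, had the lowest ratio of all named genes, at 4.80 CPM at day 2 and 142 CPM at day 1, 29.6-fold lower (25.2 to 35.0). Of 5 CC chemokines 1 was higher and 1 lower, of 7 cytokines 1 was higher and 1 lower, and of 16 NF-kB targets 1 was higher and 4 were lower. Acute phase genes were lower in 5 of 11 cases and higher in none, but in cells without mitotic UMIs, described further on, 3 of 13 were higher and 2 lower. Those lower in all progenitors included the metal-binding Mt2, at 1686 CPM at day 2 and 5114 CPM at day 1, and Saa1, 5.54-fold lower (4.83 to 6.37). Sod2, mitochondrial superoxide dismutase, was 3.14-fold lower (3.05 to 3.23).

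Other chemokines and cytokines went both ways. Cxcl13, which attracts B cells, was at 124 CPM at day 2 and 9.40 CPM at day 1, 13.2-fold higher (11.9 to 14.6), and Ccl9 was at 83.4 CPM at day 2 and 5.48 CPM at day 1. Cxcl12, which retains haematopoietic cells in marrow, was at 1016 CPM at day 2 and 784.5 CPM at day 1. Il18 was 4.27-fold higher (3.86 to 4.72), and Tslp, an epithelial-type cytokine, was 3.92-fold lower (3.59 to 4.29). Of 18 interferon-induced genes compared, 1 was higher and 3 were lower, with a median of -0.48. With TMM factors 1 was higher and 5 lower, and in cells without mitotic UMIs 1 was higher and 1 lower of 19. The only higher one in all progenitors was Ifi27l2a, at 417 CPM at day 2 and 131 CPM at day 1. Isg15, 1 of the lower ones, was at 27.2 CPM at day 2 and 84.4 CPM at day 1.

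**Figure D2:**
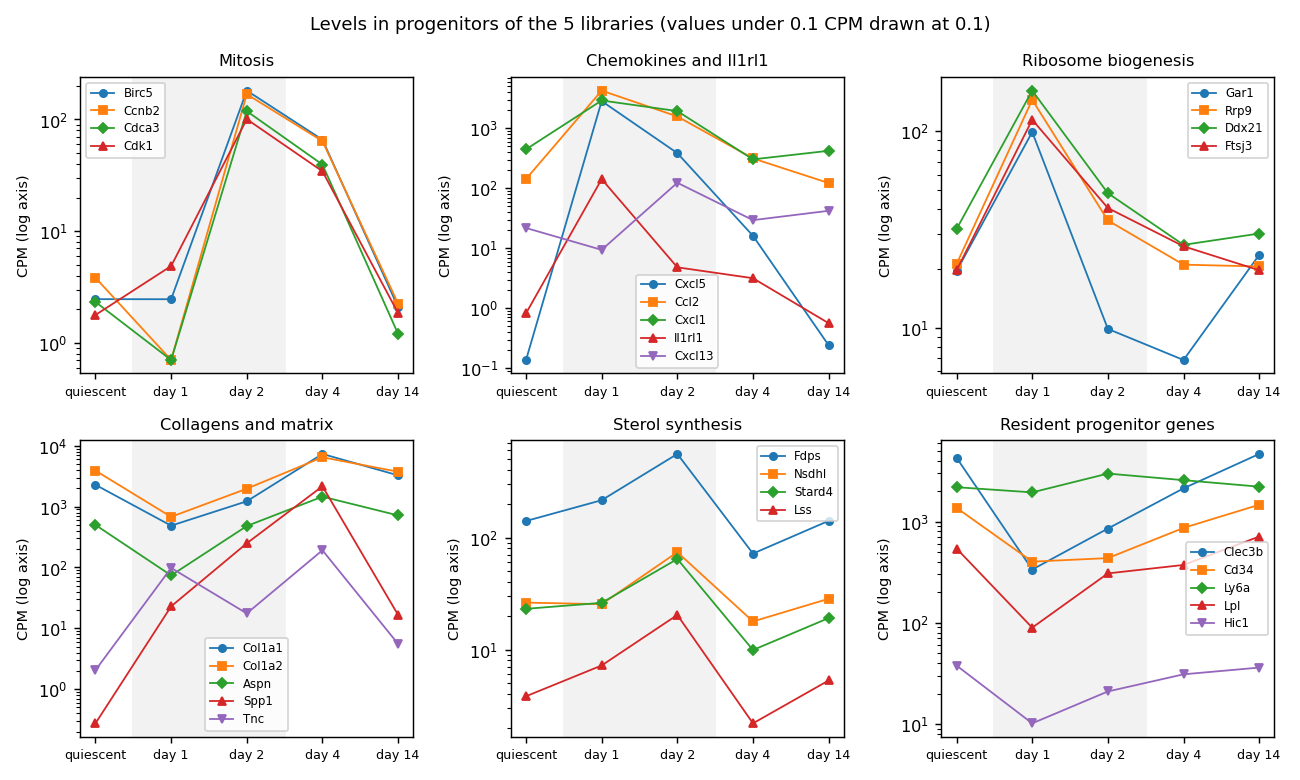
CPM (log axis) of named genes in progenitors of the 5 libraries in time order, 1 library per point, with days 1 and 2 shaded. Mitotic genes peak at day 2, Cxcl5 and Il1rl1 at day 1, and Col1a1 and Spp1 are higher at day 4 than at day 2.

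Proteases and their inhibitors split, with 3 higher and 3 lower of 25 and a median of 0.03, 1 higher and 3 lower of 24 with TMM factors, and 7 higher and 4 lower in cells without mitotic UMIs. Among those lower in all progenitors, Timp1, which inhibits matrix proteases, was at 1673 CPM at day 2 and 4711 CPM at day 1, and the protease gene Mmp3 was at 155 CPM at day 2 and 829 CPM at day 1. Aldh1a3, which makes retinoic acid and is in none of the lists, was 11.02-fold lower (10.3 to 11.8). Angptl4, an inhibitor of lipoprotein lipase, was 5.60-fold lower (5.35 to 5.86) in a hypoxia list with 1 higher and 2 lower of 11. Inhba, which encodes an activin subunit, was 6.45-fold lower (5.76 to 7.26) in a TGF-beta list with 1 higher and 1 lower of 15. The prostacyclin synthase gene Ptgis was 5.44-fold lower (5.14 to 5.75), and prostaglandin genes were lower in 4 of 7 cases and higher in 1. Heat shock chaperones were lower in 4 of 11 cases, with Hspa1a at 337 CPM at day 2 and 975.5 CPM at day 1, and the amino acid and ATF4 list in 4 of 18, with Asns, asparagine synthetase, at 60.2 CPM at day 2 and 127 CPM at day 1. In cells without mitotic UMIs 6 of 11 and 10 of 18 were lower. The amino acid and ATF4 list had 1 gene higher in either set of cells. No glycolysis or proteasome gene passed 2-fold, of 14 and 25 compared. Many of the lowest ratios are of genes shared with day 4: Apoe, Emc6, Tomm20, Cyc1, Cox5a, Ndufab1, Nol7, Pfn1 and Mrfap1 were 9 of the 15 lowest among genes with at least 100 CPM in either library, with ribosomal protein genes, predicted genes and markers of other cells left out. Rps2, a ribosomal protein gene left out there and named after its values were seen, is also shared with day 4, at 391 CPM at day 2 and 3491 CPM at day 1. Cyc1 and Cox5a were the only 2 of 32 oxidative phosphorylation genes past 2-fold, at 32.3 and 54.8 CPM at day 2 and 262 and 420 CPM at day 1.

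Collagen genes were higher or level. Of 13 fibrillar and associated collagens compared, 7 were at least 2-fold higher and none lower, with a median of 1.05. With TMM factors 3 were, with a median of 0.83. Col1a2 was at 1974 CPM at day 2 and 681 CPM at day 1, 2.90-fold higher (2.86 to 2.94), and Col3a1 at 2650 CPM at day 2 and 1204 CPM at day 1. Before injury Col1a2 was at 3917 CPM. Matricellular and glycoprotein genes split, with 9 higher and 5 lower of 30, and 18 higher and 5 lower in cells without mitotic UMIs. In all progenitors Spp1, osteopontin, a gene shared with day 4, was 10.9-fold higher (10.2 to 11.7), and Wisp2 was at 524 CPM at day 2 and 73.1 CPM at day 1. Postn, periostin, was at 320 CPM at day 2 and 97.4 CPM at day 1. The early provisional matrix gene Tnc, tenascin C, was 5.60-fold lower (5.13 to 6.13), and Thbs1 was at 61.8 CPM at day 2 and 202 CPM at day 1. S100a4, a calcium-binding protein, was at 1277 CPM at day 2 and 144 CPM at day 1, 8.85-fold higher (8.62 to 9.09), and was at 181 CPM at day 4.

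Sterol synthesis was higher in 7 of 20 genes and lower in none, with a median of 0.81, and 4 were higher with TMM factors. In cells without mitotic UMIs 2 of 18 were higher, against 13.9% of all genes compared in those cells. Fdps, farnesyl diphosphate synthase, was at 558 CPM at day 2 and 216 CPM at day 1, and Nsdhl was 2.91-fold higher (2.71 to 3.13). Both fell under 2-fold without cells carrying markers of other types, and Fdps also in cells of 5000 to 15000 UMIs. The filter on other types drops cells with at least 3 UMIs of a marker list, counted without thinning, and Pmp22 is among these markers. It keeps 600 of 2407 day 2 and 3289 of 4536 day 1 cells. The part of depth in this filter was not tested. Of 8 BMP pathway genes 4 were higher, among them the target gene Id3, at 1187 CPM at day 2 and 524 CPM at day 1. With TMM factors 3 of the 8 were higher. Id3 fell under 2-fold with TMM or DESeq2 factors, with the mean of each cell's CPM and in cells of 5000 to 15000 UMIs. Sfrp2, a secreted Wnt modulator, was at 96.4 CPM at day 2 and 3.16 CPM at day 1, 30.5-fold higher (25.7 to 36.5). Of 12 growth and angiogenic factors 5 were higher and 2 lower, with Fgf7 at 102 CPM at day 2 and 36.7 CPM at day 1. In cells without mitotic UMIs 11 of 13 were higher and 2 lower.

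Smaller groups were mixed. Of 22 early response genes 3 were higher and 5 lower, with the transcription factor genes Atf3 at 178 CPM at day 2 and 86.9 CPM at day 1 and Fosl1 at 15.5 CPM at day 2 and 65.2 CPM at day 1, while Fos and Jun stayed within 2-fold. Ier2, Junb and Socs3, 3 of the lower ones, are genes shared with day 4. The early response list had 7 higher and 3 lower of 22 in cells without mitotic UMIs. Contractile and cytoskeletal genes were higher in 4 of 24 cases and lower in 3, a balance of 3 and 5 with TMM factors. In cells without mitotic UMIs 2 of 24 were higher and 11 lower. Stmn1, which destabilises microtubules, was 21.1-fold higher (19.5 to 22.9), and Acta2, smooth muscle actin, was at 131 CPM at day 2 and 46.8 CPM at day 1, both genes shared with day 4. Tagln, transgelin, was at 9.58 CPM at day 2 and 45.6 CPM at day 1. Small proteoglycan and hyaluronan genes were higher in 5 of 14 cases and lower in none. The 5 include the spindle gene Hmmr, which is also counted in the G2/M list. Others were Ogn, osteoglycin, at 368 CPM at day 2 and 84.7 CPM at day 1, and Has2, hyaluronan synthase, 2.57-fold higher (2.31 to 2.86). Of 19 genes that process and crosslink collagen 4 were higher, or 1 with TMM factors, and with totals they included Lox, lysyl oxidase, at 158 CPM at day 2 and 78.1 CPM at day 1. Of 18 cytokine receptor genes 5 were lower, with Tnfrsf12a, the TWEAK receptor, at 133 CPM at day 2 and 480 CPM at day 1. Il17rc and Ifnar2, 2 of these 5, are genes shared with day 4.

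**Figure D3:**
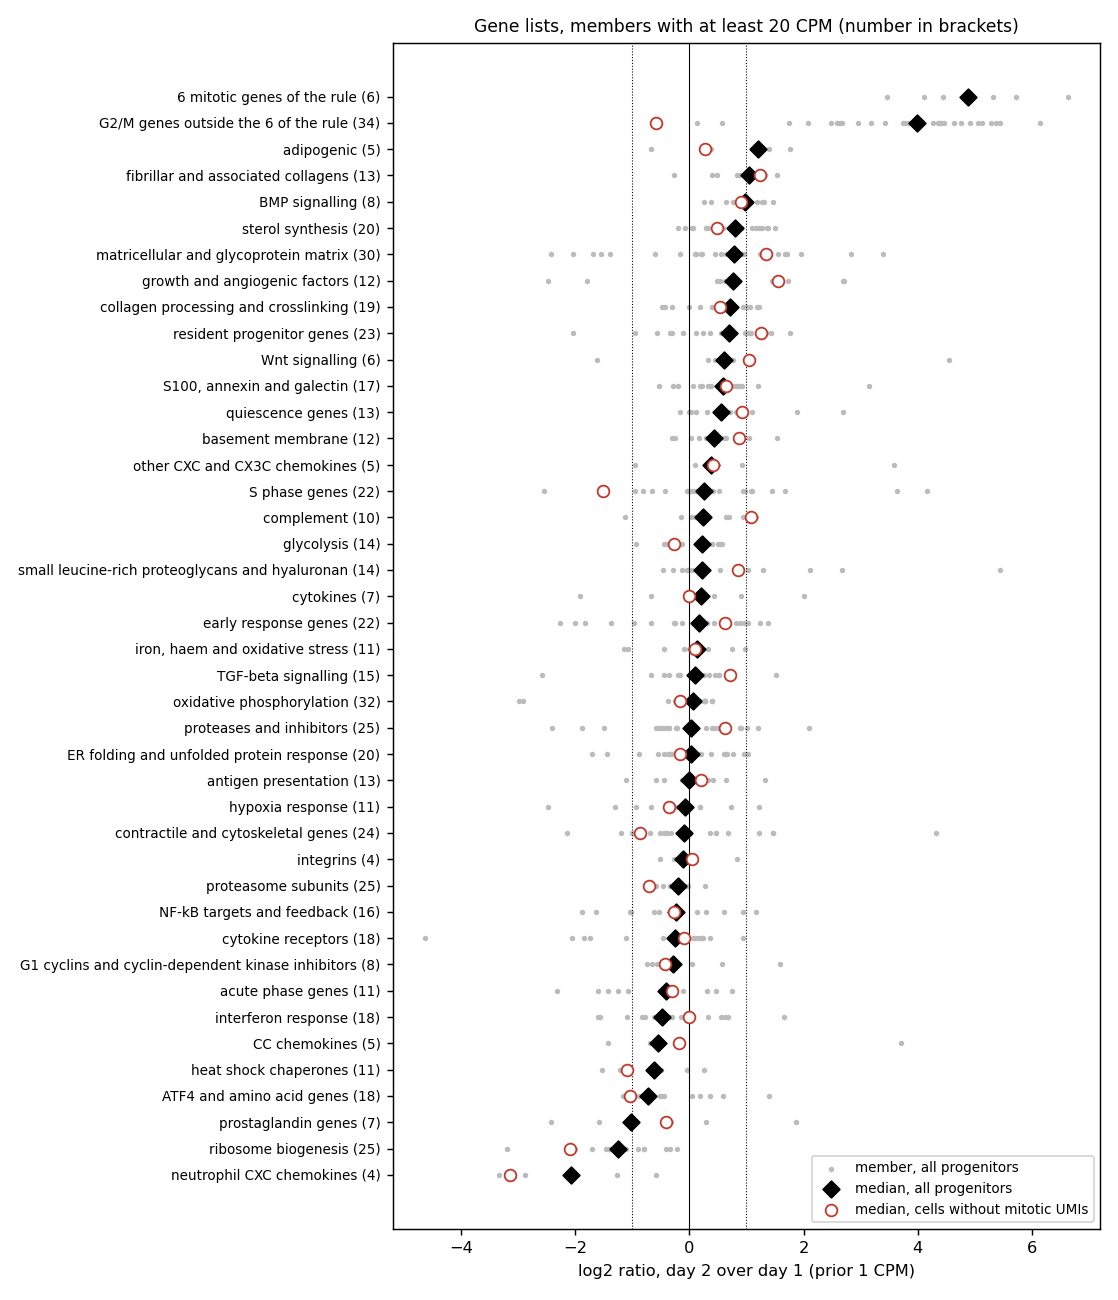
Log2 ratio of day 2 over day 1 for the members of each list with at least 4 genes compared (grey), with the list median in all progenitors (black diamonds) and in cells without mitotic UMIs (open circles). The S phase median is -1.51 over 16 genes in cells without mitotic UMIs, against 0.26 over 22 in all progenitors. That of ribosome biogenesis is -2.08 against -1.25.

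Resident progenitor genes were higher in 9 of 23 cases and lower in 1, with 4 higher and 2 lower with TMM factors. Lpl, lipoprotein lipase, was 3.43-fold higher (3.31 to 3.57) and Clec3b, tetranectin, was at 852 CPM at day 2 and 335 CPM at day 1. Hic1 itself was at 21.0 CPM at day 2 and 10.1 CPM at day 1, a ratio of 2.07 (1.83 to 2.34) that falls under 2 with TMM factors. Ly6a, the Sca-1 antigen, was at 2975 CPM at day 2 and 1940 CPM at day 1, and Cd34 at 435 CPM at day 2 and 402 CPM at day 1. The reporter tdTomato was at 745 CPM at day 2 and 1432 CPM at day 1. Smoc2, a gene shared with day 4, was the lower member.

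The comparison was repeated in the cells with 0 UMIs of the 6 mitotic genes, 1150 (47.8%) at day 2 and 4263 (94.0%) at day 1. The rule leaves out deep cells: at day 2 the median was 16249 UMIs in cells with a mitotic UMI and 7360 in those without, against 8475 in the day 1 cells without. Of 5492 genes compared, 765 (13.9%) were at least 2-fold higher and 801 (14.6%) at least 2-fold lower. Among 5255 genes compared in both sets of cells, 400 of the 453 higher and 389 of the 431 lower genes were past 2-fold in both. The 2 comparisons share cells, so these counts describe overlap and are no independent support.

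Without the mitotic cells, ribosome biogenesis had 22 of 25 genes lower, with a median of -2.08, against 19 of 25 in all progenitors. Of 24 such genes compared within day 2, 10 were at least 2-fold higher in cells with mitotic UMIs, which are left out here. S phase genes, with 6 higher and 1 lower of 22 in all progenitors, had 12 of 16 lower and 0 higher here, with a median of -1.51. The part of the cell rule in the lower medians of both lists cannot be told apart. Within the day 2 library, 22 of 23 S phase genes compared were at least 2-fold higher in cells with mitotic UMIs, the cells left out. Over all 5440 genes compared within that library, 364 were at least 2-fold higher and 271 at least 2-fold lower in those cells. The 16 S phase genes are also fewer, since Rrm2 and Tk1, at 6.92 and 8.75 CPM at day 2, were under 20 CPM here. Mcm2 had a log2 ratio of -2.90 and Mcm6 of -2.58. All 4 neutrophil chemokines were lower, Cxcl5 by 27.9-fold at 104 CPM at day 2 and 2892 CPM at day 1, and Il1rl1 was at 0.509 CPM at day 2 and 139 CPM at day 1. Of 24 resident progenitor genes 16 were higher and 1 lower, with Clec3b at 1987 CPM at day 2 and 338 CPM at day 1. Complement genes, with 1 of 10 higher in all progenitors, had 7 of 10 higher here, among them C4b, with a log2 ratio of 1.99. Of 10 complement and 24 resident progenitor genes compared within day 2, 8 and 12 were at least 2-fold lower in the cells left out. Collagens had 10 of 13 higher and 1, Col8a1, lower. Cxcl13 was at 290 CPM at day 2 and 9.85 CPM at day 1, and the secreted proteoglycan gene Aspn at 749 CPM at day 2 and 71.6 CPM at day 1. Tyms, Acta2 and Fabp5 changed sign, with log2 ratios of -0.52, -0.087 and -0.056 here against 1.67, 1.47 and 1.39 in all progenitors.

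**Figure D4:**
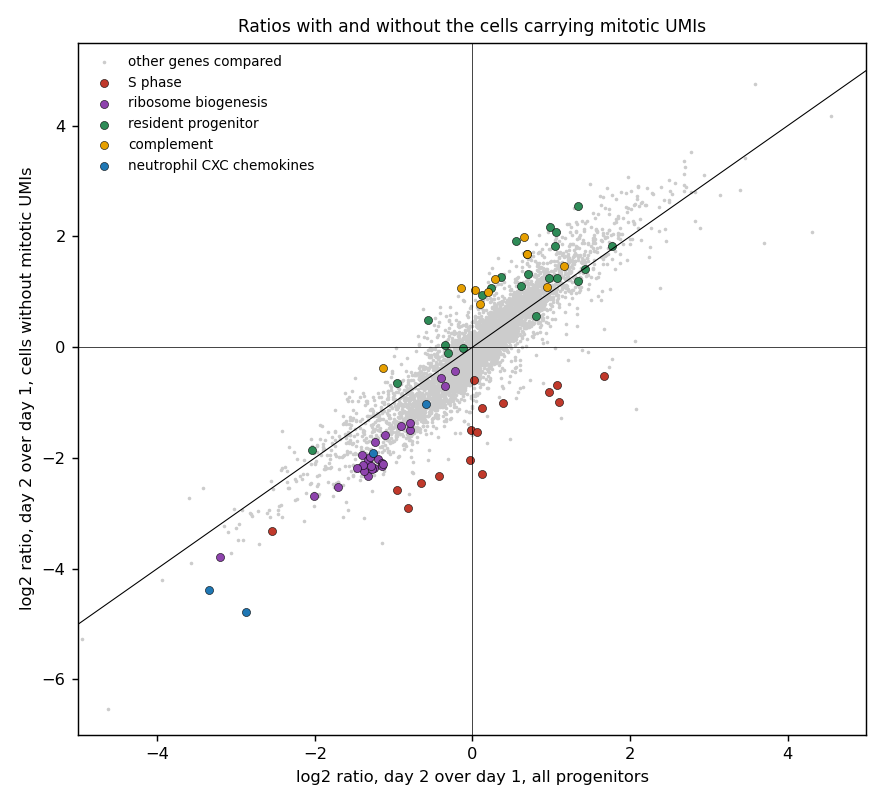
Log2 ratio of day 2 over day 1 in cells without mitotic UMIs against that in all progenitors, 1 point per gene compared in both, with the line of equal values. S phase and ribosome biogenesis genes lie below the line, and complement and most resident progenitor genes above it.

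Within the day 2 library, levels in cells with and without mitotic UMIs are given as a description, since the rule made these classes and they differ in depth. Clec3b was at 340.5 CPM in cells with mitotic UMIs and 1987 CPM in those without, Cd34 at 290.1 and 757 CPM, and Inmt, a methyltransferase, at 6.46 and 158 CPM in the same order. Cxcl5 went the other way, at 513 CPM in cells with mitotic UMIs and 104 CPM in those without, and so did Ccl2 at 1919 and 810.5 CPM. After thinning, a Cxcl5 UMI was in 25.9% (23.5 to 28.4) of day 2 cells with mitotic UMIs, 4.43% (3.32 to 5.79) of those without and 52.2% (50.8 to 53.7) of day 1 progenitors, and in 2.33% of day 2 and 12.4% of day 1 mural marker cells. The day 2 mural share rests on 43 cells, too few to tell it from the share in day 2 cells without mitotic UMIs. Mural marker cells need not express the gene. A Clec3b UMI was in 32.5% of day 2 cells with mitotic UMIs, 80.0% of those without and 34.8% of day 1 progenitors, against 27.9% (15.3 to 43.7) and 8.25% of the mural marker cells of day 2 and day 1. The share in day 2 cells with mitotic UMIs lay within the day 2 mural interval, which is wide because it rests on the same 43 cells. S100a4 was in 83.5% and 56.0% of the same 2 classes and in 19.0% of day 1 progenitors, against 39.5% and 7.22% of mural marker cells. The part of depth and of free RNA in these shares was not tested.

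**Figure D5:**
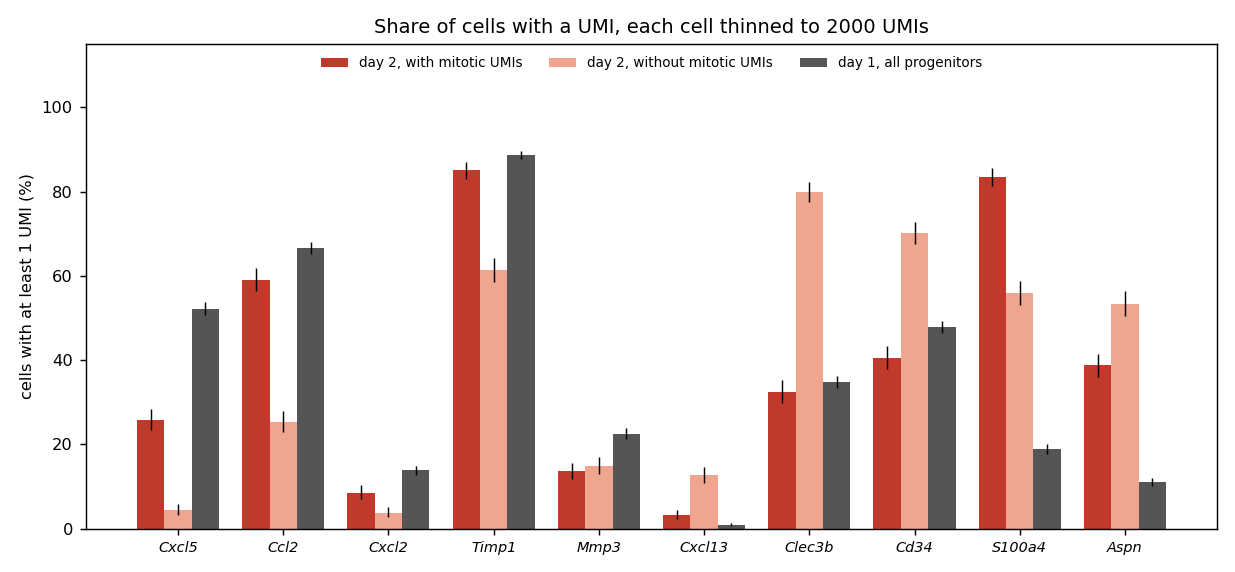
Percent of cells with at least 1 UMI of 10 genes after thinning to 2000 UMIs, with Clopper-Pearson 95% intervals, in day 2 progenitors with and without mitotic UMIs and in all day 1 progenitors. Cxcl5 and Ccl2 are in more of the cells with mitotic UMIs, while Clec3b, Cd34 and Cxcl13 are in more of those without.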

How the data were processed

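The authors deposited whole-number UMI counts per gene and barcode, not normalized, for 5 libraries of the 10x Chromium 3' v2 chemistry. Cell Ranger and mm10 are named per the submitters' processing notes; for its version and cell calling rule the sources used here give nothing. Counts were summed over the progenitors of each library and scaled to CPM. Calls needed a 2-fold ratio and 20 CPM in either library. Intervals at 95% are exact conditional binomial for ratios and Clopper-Pearson for shares (scipy 1.17.1), and UMIs sharing a cell are not independent. TMM (edgeR 4.0.16) and DESeq2 1.42.0 factors (R 4.3.3) served as other scalings only, with no test. Scrublet ran in scanpy 1.11.5. The interval and thinning code was tested on simulated data. Genes named were the 15 highest and 15 lowest ratios at 100 CPM or more, leaving out predicted genes (Gm, Rik, AC or BC names), haemoglobins, genes of ribosomal proteins or of the mitochondrial genome, and markers of cells other than progenitors, tenocytes and mural cells, 10 of each by the same rule in cells without mitotic UMIs, up to 4 members per list, and Hic1, Pdgfra, Ly6a, Cd34, tdTomato and the 6 mitotic genes; other list members given were chosen after their values were seen. The members, the 44 gene lists and the motifs were chosen with earlier results of these data known. Alternatives changed scaling, cell filters, level minimums and thinning.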

Additional observations from a re-analysis of the deposited data

How the results depend on the processing

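No paired analysis was possible because each time point is 1 library. In all progenitors the main counts were 525 higher and 434 lower of 5423 genes. Higher genes numbered 332 of 5411 with DESeq2 factors, 1067 of 9253 with a minimum of 5 CPM, 277 of 3057 with 50 CPM and 4836 of 18151 with no minimum. Lower genes numbered 656 of 5403 with TMM, 702 of 5411 with DESeq2 and 687 of 5405 without cells carrying markers of other types. They numbered 663 of 5467 in cells of 5000 to 15000 UMIs, 281 of 3057 with 50 CPM and 1979 of 18151 with no minimum. The filter on other types keeps 600 of 2407 day 2 and 3289 of 4536 day 1 cells. In cells without mitotic UMIs the main counts were 765 higher and 801 lower of 5492 genes. Higher genes numbered 454 of 5495 with TMM, 442 of 5494 with DESeq2, 1474 of 9306 with 5 CPM, 405 of 3066 with 50 CPM and 4651 of 17392 with no minimum. Lower genes numbered 1243 of 5495 with TMM, 1270 of 5494 with DESeq2, 530 of 3066 with 50 CPM and 3111 of 17392 with no minimum. Shares with 2 G2/M UMIs were 83.9% at day 2 and 78.6% at day 1 without thinning, 74.1% and 68.7% at 5000 UMIs, 31.1% and 9.33% with 3 UMIs, and 27.5% and 1.06% without the 4 broad genes. S phase shares were 74.2% at day 2 and 80.0% at day 1 without thinning, 60.9% and 75.1% at 5000 UMIs, and 21.4% and 22.2% with 3 UMIs. Without genes shared with day 4, an alternative added after seeing the data, 471 were higher and 357 lower of 5292 genes in all progenitors. The causes were not tested. Of 143 named calls, 124 to 143 were kept under the scaling and cell filters and 113 in cells without mitotic UMIs. Among genes described, Col3a1, Lox, Id3 and Hic1 lost theirs with TMM or DESeq2 factors, Ung with the mean of each cell's CPM and in cells of 5000 to 15000 UMIs, and Tyms, Acta2, Fabp5 and Top2a with both cell filters above; Tyms, Acta2, Fabp5 and Top2a also did in cells without mitotic UMIs, where Tyms (-0.52), Acta2 (-0.087) and Fabp5 (-0.056) reversed. A floor of 3 counts corresponds to 0.0948 CPM at day 2 and 0.0703 CPM at day 1.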
